A study of Danio rerio with 4 samples.

Results

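Integrins are cell-surface receptors that join the extracellular matrix, or receptors on other cells, to the actin cytoskeleton. Each is a pair of an alpha and a beta subunit, and the alpha chain largely decides which ligand is bound. Inside the cell, talins and kindlins bind the beta chain and switch the receptor on, vinculin and paxillin gather at the adhesion, and integrin-linked kinase works in a complex with parvins. In vessels, integrins hold endothelial cells to their basement membrane, and in blood cells they serve adhesion and migration.

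The genes described here are the rows of the expression table whose name starts, in lower-case letters, with itga, itgb, tln and a digit, fermt, vcl, pxn or parv, or is ilk. They are 47 of 31716 rows. There are 19 alpha subunits, 12 beta subunits, 14 adhesion partners, and 2 rows that match by name but are no subunits, itgb1bp1 (a protein that binds the beta1 tail) and itgbl1 (an integrin-like protein).

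RNA was sequenced from cells of zebrafish embryos carrying Tg(fli1a:egfp), taken 24 hours post fertilization. In this transgene, regulatory sequence of the endothelial and blood gene fli1a drives green fluorescent protein (GFP). The GFP-positive fraction, labelled as endothelial cells, was set against the GFP-negative cells, which the labels call non-endothelial. Both came from embryos with the transgene, with no other allele or treatment in the labels, and both went through dissociation, fixation and sorting. Each fraction had 2 libraries, 4 in all. Each level is the authors' single FPKM value per gene and fraction (mapped fragments, scaled by transcript length and library size). No spread between libraries is therefore given, the depth is unknown, and the labels do not say whether libraries came from separate clutches. The p-values come from the authors' Cuffdiff comparison of the 2 fractions. How much spread between libraries entered it is not given, and that spread may be technical.

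Most tested markers of vessels, red blood cells and cranial neural crest were called higher in the GFP-positive fraction, against 7.18% of all tested rows. The marker lists were drawn up with earlier results of these data known, so the counts describe the listed genes only. Endothelial markers were called higher in 5 of 6 tested rows. They summed to 797 FPKM in the GFP-positive fraction against 19.0 in the GFP-negative fraction. These include fli1a, with 187 FPKM in GFP-positive cells against 4.71 FPKM in GFP-negative cells. Its regulatory sequence drives the GFP used for sorting, so its call is no independent check of the sort. Erythroid markers were higher in 8 of 8, at 36834 summed FPKM in the GFP-positive fraction against 548 in the GFP-negative fraction. Cranial neural crest and pharyngeal arch markers were higher in 4 and lower in 1 of 6, at 388 FPKM in the GFP-positive fraction against 145 in the GFP-negative fraction. The lower one was sox10, with 1.78 FPKM in GFP-positive cells against 10.9 FPKM in GFP-negative cells (Cuffdiff q = 0.0141). The marker tfap2a did not pass (Cuffdiff q = 0.192). Markers of other tissues were lower. In skeletal muscle this held for 6 of 7 tested rows, with sums of 182 FPKM in GFP-positive cells against 1124 FPKM in GFP-negative cells. In the neural list it held for 5 of 5, with 31.0 FPKM in GFP-positive cells against 1261 FPKM in GFP-negative cells. In epidermis it held for 4 of 5, with 203 FPKM in GFP-positive cells against 1156 FPKM in GFP-negative cells, and in notochord and floor plate for 3 of 3, with 14.2 FPKM in GFP-positive cells against 91.8 FPKM in GFP-negative cells. No marker of these 7 lists was at 0 in either fraction.

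Of the 47 genes, 17 had a Cuffdiff test and 30, none above 8.09 FPKM, did not. A gene was called when its q-value in the authors' deposited table was under 0.05. In the authors' deposited table, 4 of the 17 were called higher in GFP-positive cells (itga4, itga8, itgb2 and itgb1bp1), 1 was called lower (itga6a) and 12 did not pass. Over all 7299 tested rows, 14.3% were called, with 7.18% of tested rows higher and 7.15% lower. At a stricter q of 0.01, 3 of the 17 were called higher and 0 lower by Cuffdiff, against 8.63% of all tested rows, 4.12% higher and 4.51% lower. At an unadjusted Cuffdiff p under 0.05, 5 of the 17 were higher and 1 was lower. Of all 7299 tested rows, 886 were higher and 859 lower at that level. With 1 FPKM added to each value, the median log2 ratio of the GFP-positive to the GFP-negative level was 0.58 over the 17 genes and 0.05 over all tested rows. A tested gene had to reach enough reads in some fraction, so these figures describe the 17 and not all 47. The genes were also chosen with earlier results of these data known. The contrasts with all tested rows therefore describe these genes and show nothing about integrin genes in general. In bulk RNA from a sorted fraction, fewer cells of a type and less RNA per cell cannot be told apart. Endothelial, erythroid, cranial neural crest, myeloid and thrombocyte markers all had larger sums in GFP-positive cells, and the part of these cell types in the differences of itga4, itga8 and itgb1bp1 was not tested.

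**Figure D1:**
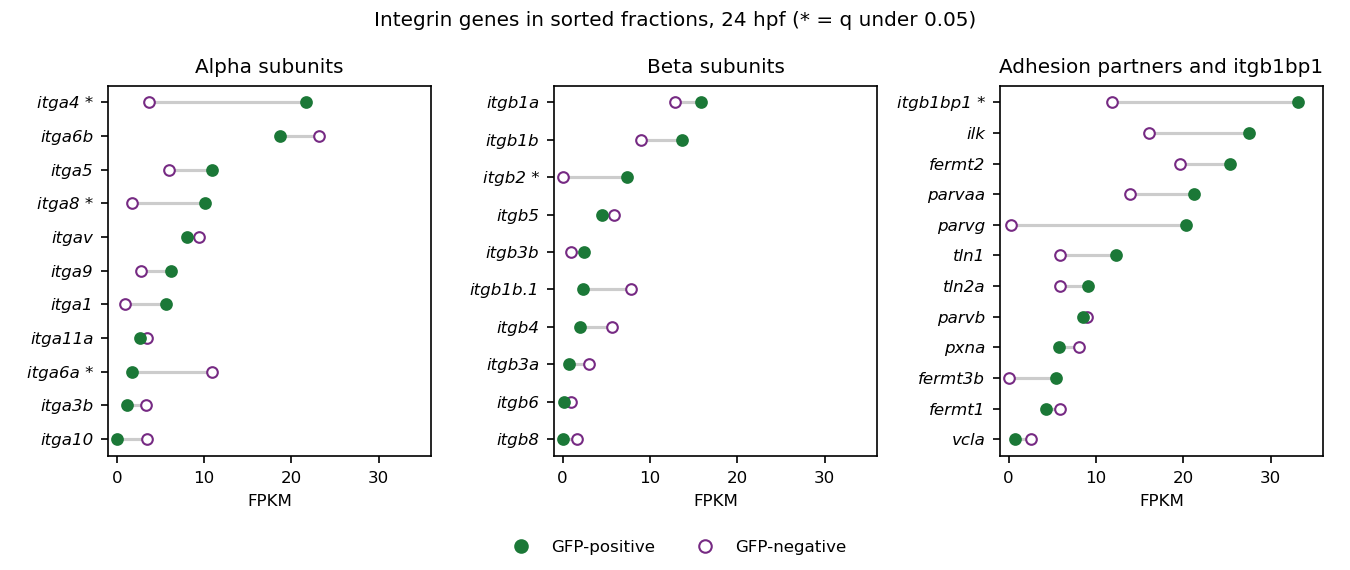
FPKM of the 33 genes with at least 1 FPKM in either fraction, filled points for GFP-positive and open points for GFP-negative cells, 1 value per gene and fraction. Stars mark the 5 genes with a deposited q under 0.05. The widest gaps were those of itgb1bp1, parvg and itga4, and parvg did not pass the test.

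Among the alpha chains, a chain of receptors for fibronectin and vascular cell adhesion molecules, itga4 (ENSDARG00000061186; Zv9 locus on chromosome 9, 45108067 to 45355573), differed most in level. It had 21.6 FPKM in the GFP-positive fraction and 3.66 in the GFP-negative fraction. That is 5.90-fold higher in GFP-positive cells, with q = 0.00313 in the authors' deposited table. It ranked 4 among the 47 genes in GFP-positive cells and 19 in GFP-negative cells. The locus also holds cerkl, a gene at 1.13 FPKM in GFP-positive cells and 1.92 FPKM in GFP-negative cells, so reads could be divided between them. Its closest relative among the chains, itga9, had 6.18 FPKM in the GFP-positive fraction against 2.77 in the GFP-negative fraction and no test.

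The chains that read the Arg-Gly-Asp (RGD) sequence in fibronectin and related ligands had 1 call among 3 tests. With 14.3% of all tested rows called, so few tests do not set this ligand class apart. The nephronectin receptor chain itga8 (chromosome 16, 30612030 to 30742249) was higher, with 10.1 FPKM in the GFP-positive fraction and 1.80 in the GFP-negative fraction. The authors' deposited table gave it a 5.62-fold difference with q = 0.00488. The fibronectin receptor chain itga5 (chromosome 23, 33661295 to 33771832) had 10.96 FPKM in the GFP-positive fraction and 5.98 in the GFP-negative fraction, and did not pass at q = 0.430 in the authors' deposited table. The partner of several beta chains, itgav, had 7.99 FPKM in the GFP-positive fraction and 9.47 in the GFP-negative fraction, with q = 0.861 in the authors' deposited table. The platelet chain itga2b was listed at 0 in both fractions. Thus in GFP-positive cells itga5, itga8 and itgav lay within a narrow span of 7.99 to 10.96 FPKM, while in GFP-negative cells itga8 lay well under the other 2.

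Of the laminin-binding chains, 2 were tested and 1 was called. Against 14.3% of all tested rows called, so few tests do not set this class apart either. Of the zebrafish copies of the alpha6 chain, itga6a (chromosome 9, 3426111 to 3532165) was lower, with 1.78 FPKM in the GFP-positive fraction and 10.9 in the GFP-negative fraction. It was 6.15-fold lower in GFP-positive cells, with q = 0.0209 in the authors' deposited table. The other copy, itga6b, had the highest level of all 47 genes in GFP-negative cells and ranked 7 in GFP-positive cells. It had 18.7 FPKM in the GFP-positive fraction and 23.2 in the GFP-negative fraction, and q = 0.804 in the authors' deposited table. Whether the copies differ from each other in response was not tested. The itga6a locus holds 3 further genes (mettl8, dcaf17 and cybrd1), none of which had a test. The neural, epidermal, skeletal muscle, and notochord and floor plate marker sums given above were lower in GFP-positive cells too, and their part in the itga6a difference was not tested. For the remaining laminin-binding chains there was no test: itga3b had 1.13 FPKM in the GFP-positive fraction against 3.30 in the GFP-negative fraction, itga3a and itga6l stayed under 1 FPKM, and itga7 was listed at 0 in both.

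None of the 6 collagen-binding chains had a test. The chain of a collagen IV receptor, itga1, had 5.65 FPKM in the GFP-positive fraction and 0.975 in the GFP-negative fraction, and a chain of cartilage in mammals, itga10, had 0.0732 FPKM in the GFP-positive fraction and 3.52 in the GFP-negative fraction. These values point in opposite directions, and neither carries an error. The fibrillar collagen receptor copy itga11a had 2.62 FPKM in the GFP-positive fraction and 3.52 in the GFP-negative fraction. The copies itga11b, itga2.1 and itga2.2 stayed under 1 FPKM in both fractions. The rows of itga1, itga2.1, ITGA2 (2 of 2) and itga2.2 lie in this order on chromosome 10, and reads of such related neighbours can be shared.

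**Figure D2:**
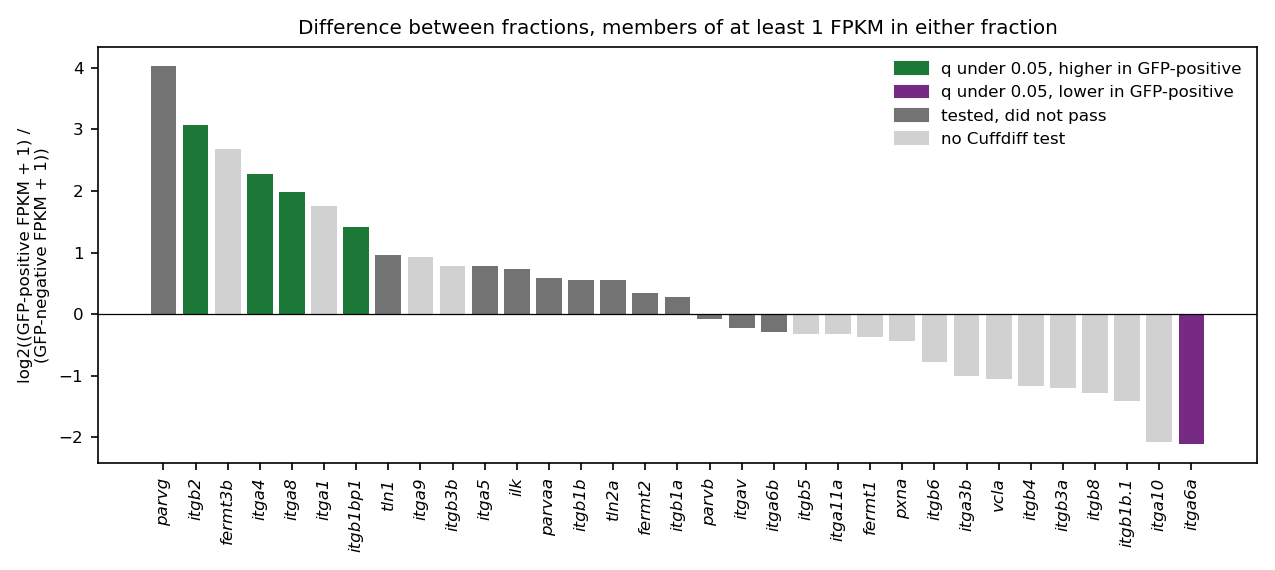
Bars give log2((GFP-positive FPKM + 1)/(GFP-negative FPKM + 1)) for the 33 genes with at least 1 FPKM in either fraction, coloured by the result in the authors' deposited table. In all, 7 genes reach 1 or more, led by parvg, and 8 reach -1 or less, led by itga6a.

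The beta1 chain, the commonest partner of the alpha chains, came from 4 rows. The copy itgb1a (chromosome 24, 1122504 to 1163974) had 15.8 FPKM in the GFP-positive fraction and 12.9 in the GFP-negative fraction, with q = 0.753 in the authors' deposited table. The row itgb1b had 13.7 FPKM in the GFP-positive fraction and 8.99 in the GFP-negative fraction, with q = 0.565 in the authors' deposited table. The rows itgb1b.1 and itgb1b.2, which adjoin each other elsewhere on chromosome 2, had no test. Of these, itgb1b.1 had 2.33 FPKM in the GFP-positive fraction and 7.85 in the GFP-negative fraction, while itgb1b.2 stayed under 1 FPKM. Summed over the 4 rows, beta1 message was 32.3 FPKM in the GFP-positive fraction and 30.6 in the GFP-negative fraction. How reads were divided among such copies is uncertain.

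The leukocyte beta chain itgb2 (chromosome 9, 46027570 to 46051049), which pairs with the alpha chains of white blood cells, was called higher. It had 7.35 FPKM in the GFP-positive fraction and a listed value of 0 in the GFP-negative fraction, with q = 0.000958 in the authors' deposited table. Of tested rows at 0 in GFP-negative cells, 42 of 61 were called, which is 68.9% against 7.18% of all tested rows called higher. The part of the 0 in the itgb2 call was not tested. Its sister chain of lymphocytes, itgb7, and its alpha partner itgam were at 0.202 and 0.222 FPKM in GFP-positive cells and at 0 in GFP-negative cells, with no test. The reference of gene names calls this itgam row itgam.2. It gives the name itgam.1 to a row outside the pattern, si:dkey-32n7.4. That row had 1.31 FPKM in GFP-positive cells, 0 in GFP-negative cells and no test. Myeloid markers, like itgb2, had a larger sum in GFP-positive cells. Of 11 rows, 6 were tested and 2 were called higher, and their sum was 409 FPKM in the GFP-positive fraction against 3.25 in the GFP-negative fraction. In GFP-negative cells mpeg1, both lcp1 rows and MPEG1 (3 of 3) were at 0, and MPEG1 (3 of 3) was at 0 in GFP-positive cells too. The untested row MPEG1 (1 of 3) went the other way, with 0.302 FPKM in GFP-positive cells against 0.496 FPKM in GFP-negative cells. Endothelial, erythroid, cranial neural crest and thrombocyte sums were larger in GFP-positive cells too. The part of any of these cell types in the itgb2 difference was not tested.

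The 5 beta chains that pair mainly with itgav had no test. The copies of the vitronectin and fibrinogen receptor chain beta3 stood in opposite order. The first, itgb3a, had 0.736 FPKM in the GFP-positive fraction and 2.99 in the GFP-negative fraction, and itgb3b had 2.42 FPKM in the GFP-positive fraction and 0.991 in the GFP-negative fraction. The vitronectin receptor chain itgb5 had 4.51 FPKM in the GFP-positive fraction and 5.85 in the GFP-negative fraction. The epithelial chain itgb6 had 0.175 FPKM in the GFP-positive fraction and 1.01 in the GFP-negative fraction, and itgb8 had 0.0783 FPKM in the GFP-positive fraction and 1.63 in the GFP-negative fraction. The hemidesmosome chain itgb4, which joins the alpha6 chain in epidermis, had 1.98 FPKM in the GFP-positive fraction and 5.70 in the GFP-negative fraction.

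FPKM is scaled by length, so the chains can be added up as a description with no error. The fractions did not have equal totals: all rows summed to 798915 FPKM in the GFP-positive fraction and 664220 in the GFP-negative fraction. The 19 alpha rows summed to 89.3 FPKM in the GFP-positive fraction and 70.3 in the GFP-negative fraction, and the 12 beta rows summed to 49.7 FPKM in the GFP-positive fraction and 48.8 in the GFP-negative fraction. Without scaling to these unequal totals, the sums were close for the beta chains. The make-up differed among the alpha chains and among the beta chains. Laminin-binding chains gave 24.9% of alpha-chain FPKM in the GFP-positive fraction and 53.8% in the GFP-negative fraction. The pair itga4 and itga9 gave 31.1% in the GFP-positive fraction and 9.15% in the GFP-negative fraction. Of these, itga4 alone gave 24.2% in the GFP-positive fraction and 5.21% in the GFP-negative fraction. RGD-binding chains gave 32.5% in the GFP-positive fraction and 24.5% in the GFP-negative fraction. The collagen-binding chains gave 11.2% in GFP-positive cells, close to the 12.5% in GFP-negative cells. Among beta chains, beta1 gave 64.9% in the GFP-positive fraction and 62.8% in the GFP-negative fraction. The partners of itgav gave 15.9% in the GFP-positive fraction and 25.5% in the GFP-negative fraction, and beta4 gave 3.98% in the GFP-positive fraction and 11.7% in the GFP-negative fraction. The itgb2 chain gave 14.8% of the GFP-positive sum. These are shares of messenger RNA and do not count receptors. They leave out alpha-chain rows written in capitals, which are described below. With those rows, alpha chains summed to 104 FPKM in the GFP-positive fraction and 75.5 in the GFP-negative fraction. Laminin-binding chains then gave 21.4% in the GFP-positive fraction and 50.1% in the GFP-negative fraction, and leukocyte chains 7.11% and 1.44%.

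**Figure D3:**
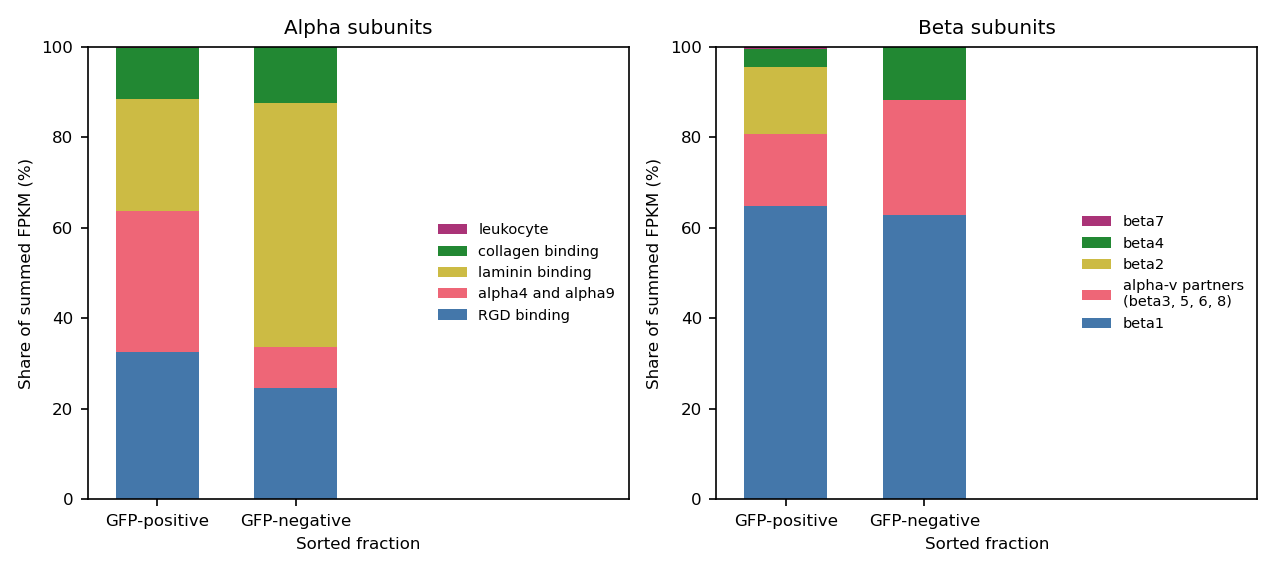
Share of summed FPKM (%) by ligand class of alpha subunits and by family of beta subunits, with the GFP-positive bar left of the GFP-negative bar. The laminin-binding share of alpha chains is 24.9% in the GFP-positive fraction and 53.8% in the GFP-negative fraction, while beta1 holds 64.9% of beta chains in the GFP-positive fraction and 62.8% in the GFP-negative fraction.

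None of the cytoplasmic partners named in lower-case letters was called: in the authors' deposited table, 0 of the 7 tested by Cuffdiff passed. A kindlin row named in capitals, FERMT3 (2 of 2), was called higher and is described below. At an unadjusted Cuffdiff p under 0.05, 1 of the 7 was higher, against 886 of all 7299 tested rows. With 14.3% of all tested rows called, a count of 0 in 7 does not set the partners apart. The partner with an unadjusted p under 0.05 was the talin tln1 (chromosome 10, 8107186 to 8299534), which links the beta tail to actin. It had 12.3 FPKM in the GFP-positive fraction and 5.83 in the GFP-negative fraction, a ratio of 2.1 just outside the threshold at q = 0.0589 in the authors' deposited table. Its relative tln2a had 9.05 FPKM in the GFP-positive fraction and 5.85 in the GFP-negative fraction, with q = 0.809 in the authors' deposited table.

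The kinase-like scaffold ilk (chromosome 10, 25156300 to 25190812) had 27.5 FPKM in the GFP-positive fraction and 16.1 in the GFP-negative fraction, with q = 0.215 in the authors' deposited table. Its actin-binding partner parvaa had 21.3 FPKM in the GFP-positive fraction and 13.9 in the GFP-negative fraction, and q = 0.419 in the authors' deposited table. The broadly expressed kindlin fermt2 had 25.3 FPKM in the GFP-positive fraction and 19.7 in the GFP-negative fraction, with q = 0.735 in the authors' deposited table. Of the 7 tested partners, 6 stood at a larger value in the GFP-positive fraction. The exception was parvb at 8.53 FPKM in the GFP-positive fraction and 9.03 in the GFP-negative fraction, with q = 0.975 in the authors' deposited table. A test needed enough reads in some fraction, so this count leaves out the untested partners. Of the 11 partners with at least 1 FPKM in either fraction, 7 were larger in GFP-positive cells and 4 in GFP-negative cells. Of all 15598 such rows, 7418 were larger in GFP-positive cells and 8180 in GFP-negative cells.

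The parvin of blood cells in mammals, parvg (chromosome 25, 5403040 to 5419138), had the largest ratio of the tested genes with a value in both fractions and still did not pass. It had 20.3 FPKM in the GFP-positive fraction and 0.306 in the GFP-negative fraction, a 66.4-fold ratio with q = 0.561 in the authors' deposited table. This was not peculiar to parvg. Of 124 tested rows over 30-fold higher in GFP-positive cells, 47 were called and 48 had an unadjusted p of 0.2 or more in the authors' deposited table. The blood cell kindlin fermt3b had 5.38 FPKM in the GFP-positive fraction, a listed value of 0 in the GFP-negative fraction and no test. The myeloid sum given above was larger in GFP-positive cells too, as were the endothelial, erythroid, cranial neural crest and thrombocyte sums. The part of these cell types in the parvg and fermt3b differences was not tested.

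The other partners had no test. The epithelial kindlin fermt1 had 4.26 FPKM in the GFP-positive fraction and 5.84 in the GFP-negative fraction, and vcla, the vinculin row, had 0.703 FPKM in the GFP-positive fraction and 2.52 in the GFP-negative fraction. Of the 2 rows named pxna, for paxillin, one had 5.72 FPKM in the GFP-positive fraction and 8.09 in the GFP-negative fraction and the other was listed at 0 in both. Both rows named parvab were at 0 in both fractions as well.

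The highest level of all 47 genes in GFP-positive cells was that of itgb1bp1 (chromosome 17, 35392395 to 35405489). In mammals its product binds the beta1 tail, competes with talin and partners the cerebral cavernous malformation protein KRIT1. It had 33.1 FPKM in the GFP-positive fraction and 11.9 in the GFP-negative fraction, 2.79-fold higher with q = 0.0263 in the authors' deposited table. The integrin-like itgbl1 had 0.782 FPKM in the GFP-positive fraction and 0.907 in the GFP-negative fraction.

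**Figure D4:**
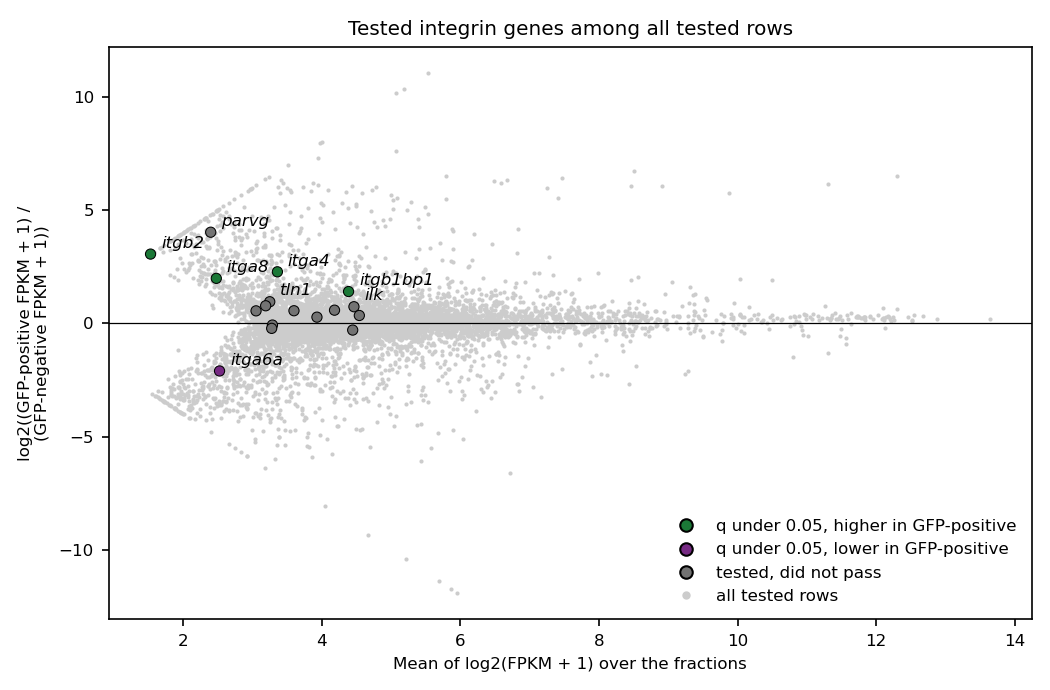
Each point is a tested row, with the mean of log2(FPKM + 1) over the fractions on the x axis. The y axis gives log2((GFP-positive FPKM + 1)/(GFP-negative FPKM + 1)). The 17 outlined points are the tested integrin subunits, adhesion partners and itgb1bp1. The 5 called genes lie away from 0 at low to middle levels, and parvg lies above them without passing.

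Over all 47 genes, 33 had at least 1 FPKM in either fraction, 17 with the larger value in GFP-positive cells and 16 with the larger value in GFP-negative cells. The log2 (FPKM + 1) ratio was 1 or more in 7 of the 33, which is 21.2% against 12.2% of all 15598 such rows. It was -1 or less in 8, which is 24.2% against 17.1%. The median over the 33 was 0.27, against -0.04 over all such rows. These contrasts too describe genes chosen with earlier results of these data known. The other 14 genes stayed under 1 FPKM in both fractions, and 5 of these were listed at 0 in both.

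Genes of the same families written in capitals stand outside the lower-case pattern and numbered 8. Of these, 2 had a test. The second blood cell kindlin row, FERMT3 (2 of 2), had 8.996 FPKM in the GFP-positive fraction, a listed value of 0 in the GFP-negative fraction, and was called higher with q = 0.000958 in the authors' deposited table. With it, 1 of the tested partners is called. Of tested rows at 0 in GFP-negative cells, 42 of 61 were called, which is 68.9% against 7.18% of all tested rows called higher. The part of the 0 in the FERMT3 (2 of 2) call was not tested. The muscle protein melusin, ITGB1BP2, had 2.74 FPKM in the GFP-positive fraction and 17.4 in the GFP-negative fraction, and q = 0.157 in the authors' deposited table. Untested leukocyte chains were ITGAL at 3.51 FPKM in the GFP-positive fraction and 1.09 in the GFP-negative fraction, and ITGAE (1 of 2) at 3.49 FPKM in GFP-positive cells and 0 in GFP-negative cells. A collagen-binding chain, ITGA2 (2 of 2), had 7.64 FPKM in the GFP-positive fraction and 4.09 in the GFP-negative fraction with no test, and ITGAE (2 of 2), PXN (1 of 3) and TLN2 (2 of 2) stayed under 1 FPKM. Thrombocyte markers, to which itga2b belongs, were called in 0 of 3 tested rows in the authors' Cuffdiff table. An unadjusted Cuffdiff p under 0.05 was reached by 0 of the 3. With 14.3% of all tested rows called, a count of 0 in 3 does not set thrombocyte markers apart. The thrombocyte rows summed to 48.5 FPKM in the GFP-positive fraction and 3.93 in the GFP-negative fraction, with mpl at 0 in GFP-negative cells.

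Of 32 tested genes of focal adhesion and signalling, 3 passed as higher, 3 passed as lower and 26 missed the threshold in the authors' deposited table. The called share of 18.8% was near the 14.3% of all tested rows. Higher were the talin-recruiting GTPase rap1b, with 99.6 FPKM in the GFP-positive fraction and 36.8 in the GFP-negative fraction, the paxillin-complex exchange factor arhgef7b, with 24.8 FPKM in GFP-positive cells against 9.95 FPKM in GFP-negative cells, and the actin crosslinker ACTN4 (2 of 3), with 149 FPKM in GFP-positive cells against 68.2 FPKM in GFP-negative cells. Lower were the laminin-receptor tetraspanin cd151, listed at 0 in the GFP-positive fraction and at 11.5 FPKM in the GFP-negative fraction, the actin regulator enah, with 13.4 FPKM in GFP-positive cells against 46.9 FPKM in GFP-negative cells, and the kinase fyna, with 1.71 FPKM in GFP-positive cells against 11.8 FPKM in GFP-negative cells. The related row cd151l had 70.1 FPKM in GFP-positive cells against 60.6 FPKM in GFP-negative cells. It did not pass, at q = 0.855 in the authors' deposited table. Of tested rows at 0 in GFP-positive cells, 23 of 42 were called, and the part of the 0 in the cd151 call was not tested. The endothelial Rap1 effector rasip1 had 27.5 FPKM in the GFP-positive fraction and 0.161 in the GFP-negative fraction, and did not pass at q = 0.553 in the authors' deposited table.

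Of 11 tested ligand genes, 4 passed as higher, 0 passed as lower and 7 missed the threshold in the authors' deposited Cuffdiff table. At an unadjusted Cuffdiff p under 0.05, 6 were higher and 1 was lower, against 886 higher and 859 lower of all 7299 tested rows. The share called higher was 36.4%, against 7.18% of all tested rows. The ligand list was drawn up with earlier results of these data known. This contrast therefore describes the listed genes and cannot show that ligand genes in general were called more often. The same limit holds for the ligand medians below. Higher were the vascular laminin chain lama4, with 19.9 FPKM in the GFP-positive fraction and 6.79 in the GFP-negative fraction, lamc3, with 9.26 FPKM in GFP-positive cells against 1.80 FPKM in GFP-negative cells, emilin1b, with 15.1 FPKM in GFP-positive cells against 5.35 FPKM in GFP-negative cells, and the tenascin tnc, with 57.3 FPKM in GFP-positive cells against 25.6 FPKM in GFP-negative cells. Of these, emilin1b (Cuffdiff q = 0.0196) and tnc (Cuffdiff q = 0.0452) missed the stricter threshold of 0.01, while lama4 and lamc3 met it. Fibronectin, the ligand of itga5 and itga4, had its copies in opposite order. The copy fn1a had 12.6 FPKM in the GFP-positive fraction and 7.78 in the GFP-negative fraction, and fn1b had 1.11 FPKM in GFP-positive cells against 7.45 FPKM in GFP-negative cells. Neither copy passed, at q = 0.320 for fn1a and q = 0.108 for fn1b in the authors' deposited table. The median log2 (FPKM + 1) ratio was 1.13 over the 11 tested ligand genes, against 0.05 over all tested rows, and 0.64 over the 18 ligand rows of at least 1 FPKM in either fraction, against -0.04 over all such rows. For adhesion and signalling genes it was 0.07 over the 32 tested genes and -0.02 over the 46 rows of at least 1 FPKM, close to the same medians over all rows.

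**Figure D5:**
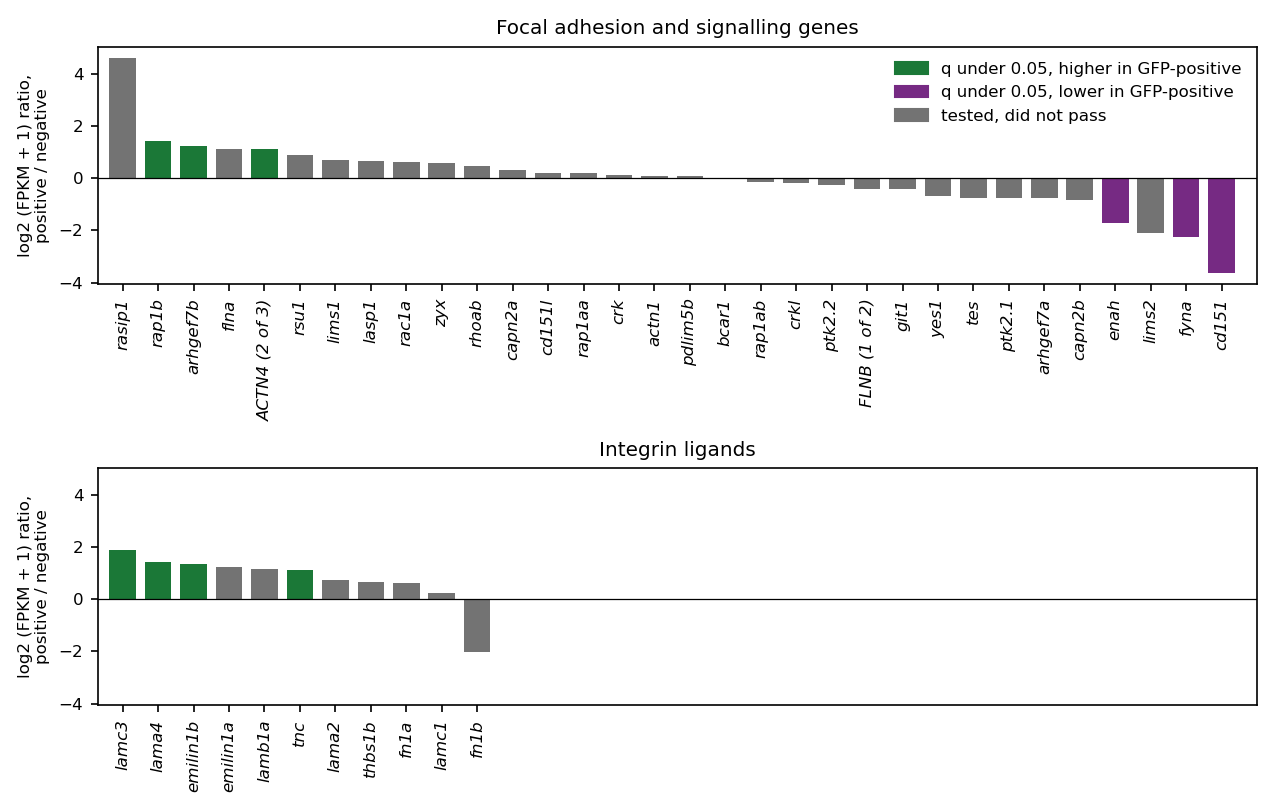
Bars give log2((GFP-positive FPKM + 1)/(GFP-negative FPKM + 1)) for the 32 tested genes of focal adhesion and signalling and the 11 tested ligand genes. Called genes are coloured: 3 higher and 3 lower among adhesion genes, 4 higher among ligands.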

How the data were processed

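The labels' protocols give fixation, sorting, RNA isolation by MARIS (a method for fixed, sorted cells) and TotalScript libraries. Per the submitters' processing notes, the tools were TopHat2 2.0.9 and Cuffdiff 2.1.1, with build Zv9; settings are not given in the sources used here. Per the file headers, the table holds 1 FPKM value per gene and fraction, a log2 ratio of GFP-negative over GFP-positive, a test statistic (a score), a p-value and a q-value, as the authors deposited them. That each FPKM covers both libraries was taken from the sample titles. The sign of log2 was reversed here; recomputing it from the FPKM values gave differences of at most 1.5e-05, and q matched a Benjamini-Hochberg adjustment over tested rows within 5.3e-07. The error behind every call is that of the authors' Cuffdiff test, adjusted over 7299 rows. Of 31716 rows, 24304 had too few alignments and 113 were LOWDATA.

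The log2 (FPKM + 1) ratios of the medians, counts and figures add 1 FPKM, which understates the change of low genes. Stated folds are FPKM quotients with nothing added. Loci are as the file gives them and span overlapping genes (8 of the 47 share one); whether starts count from 0 or 1 is not stated. A reference of gene names matched 41 of the 47 IDs. Since a 0 may be an estimate that failed, no fold is given against it. Members and lists were chosen with earlier results of these data known, so every listed gene with a test could be named. Calling code, run in Python 3.11.15 with pandas 2.3.3, was tested on simulated data. Alternatives were a q of 0.01, minimum folds and levels, renewed adjustment, unshared names and loci, letter case, rows at 0 left out, pseudocounts and centring. Protein motifs were not searched, since sequences were not used here.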

Additional observations from a re-analysis of the deposited data

How the results depend on the processing

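Several alternatives could not move a value: settings that only remove rows cannot change a count of 0, and minima of 1 and 5 FPKM removed no tested member. The following moved by over 1.5 times. At a q of 0.01, genes called lower fell to 0 (likewise alpha subunits, 0, since itga6a has q = 0.0209), and pathway genes called in either direction numbered 5 against 10, an alternative chosen after seeing the data. With rows alone in their locus, 1 alpha subunit was called higher in place of 2 and 0 members lower (0 alpha subunits), since itga4 and itga6a share loci. With rows at 0 in a fraction left out, 0 beta subunits were higher, since itgb2 is at 0 in GFP-negative cells. With capital-letter names included, 1 adhesion partner was higher. The median log2 ratio of 0.58 was 0.27 over genes of at least 1 FPKM in either fraction, which adds untested genes. Of the 5 called genes, itga6a and itgb1bp1 missed a q of 0.01. Renewing the adjustment over rows of at least 1 FPKM changed nothing, since 0 tested rows were under that level. Adding names from the reference was also chosen after seeing the data. No paired analysis was possible because the columns carry 1 value per fraction and no replicate number; for the same reason leaving out a library was not run. Depth is unknown, so no detection limit is given for the 30 untested genes.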
